A study of Mus musculus with 2 samples.

Results

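Small leucine-rich proteoglycans (SLRPs) are secreted proteins of connective tissue with a core of leucine-rich repeats. Most carry chains of chondroitin, dermatan or keratan sulfate. In bone, cartilage and tendon they bind collagen fibrils and set their width and spacing, and several bind growth factors such as TGF-β and BMPs. The 10 SLRP genes described here were listed by name under a rule that uses no measured value, though earlier results of these data were known: Bgn (biglycan), Dcn (decorin) and Aspn (asporin) of subfamily I, Lum (lumican), Prelp, Omd (osteomodulin) and Kera (keratocan) of subfamily II, Ogn (osteoglycin) and Epyc (epiphycan) of subfamily III, and Chad (chondroadherin) of subfamily IV. All 10 were found among the 21905 gene symbols of both tables.

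The cells came from femurs and tibias of 12-week-old female mice that were killed 96 h after vehicle (Veh) or doxorubicin (Doxo), a DNA-damaging chemotherapy given at 10 mg/kg. Bone was cut up and digested with collagenase, CD45+ cells were removed on magnetic beads, and CD45+, CD71+, Ter119+ and CD31+ cells were removed by sorting, so both libraries lack most blood cells. The labels give no genotype and no strain for these libraries, and C57BL/6J is named in the study's methods. Each condition gave 1 droplet-based 3′ library, and the number of mice behind it is not given in the sources used here.

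With 1 library per condition there is no replicate error, so no test between Veh and Doxo was made. The intervals given are 95% intervals and cover counting error only. Levels are given as the summed unique molecular identifiers (UMIs, counted RNA molecules) of a gene per 1000000 UMIs of a cell class, abbreviated CPM. A 3′ library counts each molecule once, so gene length does not enter when genes are compared.

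Each library held 2488 cells, with 24859695 UMIs in Veh and 20792012 in Doxo and a median of 8693 and 7347.5 UMIs per cell. The libraries shared 4 cell barcodes. Cells were clustered with the 10 genes left out and named from marker genes as CAR-like (Cxcl12-abundant reticular cells of the marrow stroma, 363 Veh and 419 Doxo cells), osteoblast-like (214 and 136), chondrocyte-like (245 and 203), endothelial-like (103 and 69), bone and cartilage fibroblast-like (BC fibroblast-like, 1117 and 1359) and arteriolar and endosteal fibroblast-like (AE fibroblast-like, 403 and 247). A further 43 Veh and 55 Doxo cells were synovial lining-like, a class outside the rule that is used below only where stated. All 8 listed markers passed the thresholds for naming in CAR-like, chondrocyte-like and endothelial-like cells, the last in spite of the CD31 depletion. In BC fibroblast-like cells 5 of 8 passed, and Fn1, S100a4 and Tppp3 did not. In AE fibroblast-like cells 6 of 8 passed, without Pi16 and Pcolce2, and in osteoblast-like cells 6 of 8, without Ibsp and Alpl. The BC fibroblast-like name is the least exclusive. Its summed markers reached 28692 and 23073 CPM in its own Veh and Doxo cells and 29922 and 29203 CPM in the synovial lining-like cells. In turn, the summed synovial markers reached 32263 and 37159 CPM in the BC fibroblast-like cells, above the sums of their own markers. Summed erythroid markers were lower in Doxo in every class (131 to 701 CPM in Veh against 5.58 to 62.9 CPM in Doxo).

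The proteins of the family are told apart by a cluster of 4 cysteines ahead of the repeats, whose spacing differs between subfamilies. The coding stretches of these clusters are shown 5′ to 3′ because they order the account that follows. They were read from the GENCODE M21 transcripts on GRCm38, and capitals mark the cysteine codons.
Bgn, codons 64 to 77: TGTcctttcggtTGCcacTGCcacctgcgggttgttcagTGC
Dcn, codons 49 to 62: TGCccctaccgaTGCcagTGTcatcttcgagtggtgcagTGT
Aspn, codons 68 to 81: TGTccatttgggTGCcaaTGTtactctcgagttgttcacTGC
Lum, codons 37 to 53: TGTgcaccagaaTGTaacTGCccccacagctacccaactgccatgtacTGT
Prelp, codons 69 to 85: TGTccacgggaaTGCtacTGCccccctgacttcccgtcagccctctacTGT
Omd, codons 62 to 78: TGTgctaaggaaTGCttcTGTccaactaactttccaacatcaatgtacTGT
Kera, codons 43 to 59: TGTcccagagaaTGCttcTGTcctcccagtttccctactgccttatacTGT
Ogn, codons 94 to 106: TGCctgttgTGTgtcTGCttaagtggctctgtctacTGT
Epyc, codons 118 to 130: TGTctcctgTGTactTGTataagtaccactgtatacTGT
Chad, codons 22 to 37: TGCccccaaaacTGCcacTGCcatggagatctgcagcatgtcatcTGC
The 3 genes of subfamily I have 3, 1 and 6 codons between the cysteine codons, the 4 of subfamily II have 3, 1 and 9, the 2 of subfamily III have 2, 1 and 6, and Chad has 3, 1 and 8.

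Some of the 10 genes were among the most abundant RNAs of these cells and others were rare. Dcn ranked 2 among all genes of the Veh library and 4 in Doxo, Chad ranked 17 and 14, and Bgn 96 and 95, whereas Epyc ranked 2009 and 3241 and Kera 5810 and 9398. Together the 10 genes made up 4.01% of the UMIs of BC fibroblast-like cells in Veh and 3.39% in Doxo, and 2.92% and 2.66% in AE fibroblast-like cells. They made up 1.54% and 1.81% in chondrocyte-like cells, 0.499% and 0.676% in CAR-like cells, and 0.242% and 0.267% in endothelial-like cells. Osteoblast-like cells had 0.318% and 0.455%. The BC fibroblast-like cells thus held 68.0% of all SLRP UMIs of the Veh library and 72.3% of those of the Doxo library. A median BC fibroblast-like cell had UMIs of 6 of the 10 genes in Veh and 5 in Doxo, a median chondrocyte-like cell of 7 in both, and a median endothelial-like cell of 2 in both.

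**Figure D1:**
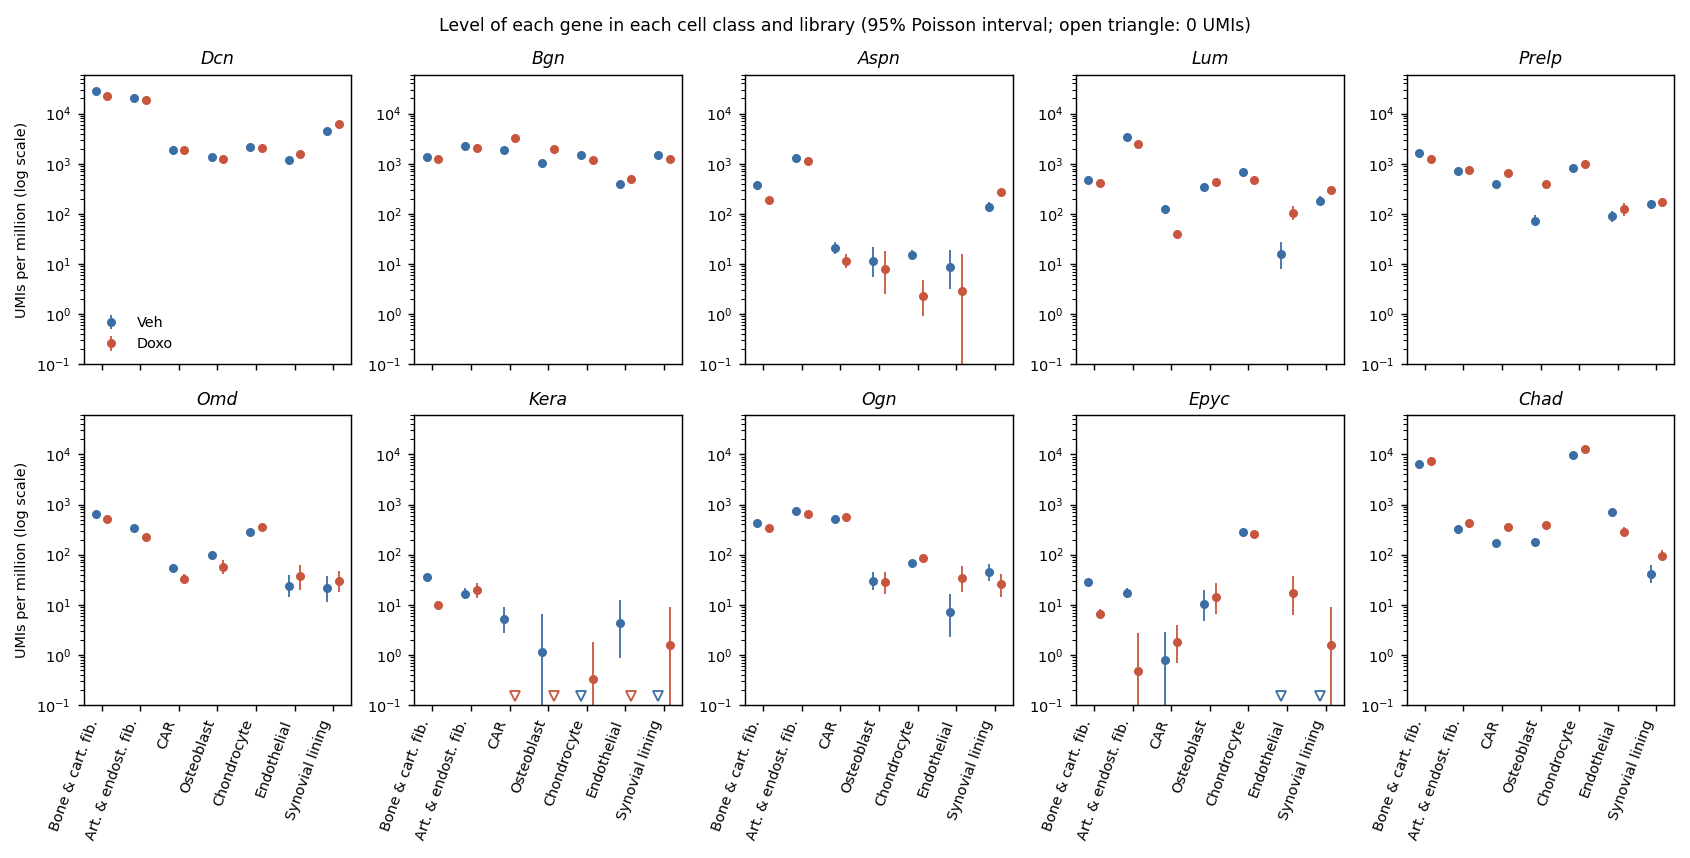
Level of each of the 10 genes in each cell class, in CPM on a log scale, with Veh in blue and Doxo in red and bars for the 95% Poisson interval of the summed count. Dcn and Bgn lie at 399 CPM or more in every class, Epyc stands out in chondrocyte-like cells (279 CPM in Veh and 259 CPM in Doxo), and Kera is low throughout.

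The mix of the family differed between classes. Dcn gave 71.2% of the SLRP UMIs of BC fibroblast-like cells in Veh and 66.8% in Doxo, and 68.6% and 71.0% of those of AE fibroblast-like cells. In chondrocyte-like cells Chad took that place, with 62.1% in Veh and 70.0% in Doxo. In CAR-like cells Dcn and Bgn were level in Veh, with 37.1% and 36.9%, whereas in Doxo Bgn gave 47.7% and Dcn 28.2%. Osteoblast-like cells had 43.8% Dcn and 32.6% Bgn in Veh, and 27.1% and 43.6% in Doxo.

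**Figure D2:**
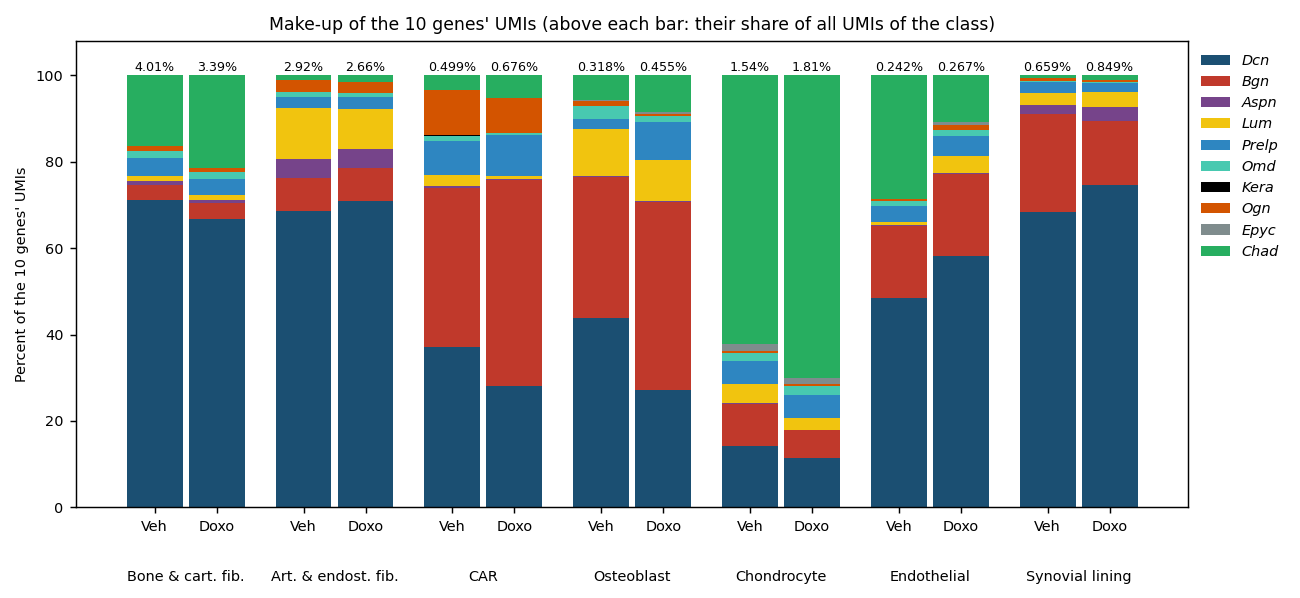
Percent of the summed UMIs of the 10 genes that each gene contributed, for each class and library, with the share of all UMIs of the class written above each bar. Dcn fills most of the fibroblast-like bars, Chad most of the chondrocyte-like bars (62.1% and 70.0%), and the Bgn part of the CAR-like bars is 36.9% in Veh and 47.7% in Doxo.

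Dcn, which binds collagen fibrils and TGF-β, was highest in BC fibroblast-like cells. Its level there was 28557 CPM (28459 to 28656) in Veh and 22613 CPM (22524 to 22703) in Doxo, and 99.8% and 99.7% of the cells had a UMI of it. AE fibroblast-like cells followed with 20051 CPM (19913 to 20189) and 18869 CPM (18681 to 19058), and the other classes of the rule lay between 1174 and 2174 CPM in Veh and between 1235 and 2090 CPM in Doxo. The order over the 6 classes was the same in both libraries down to CAR-like cells, and no neighbours in it had overlapping intervals. Endothelial-like cells, which are not a main source of Dcn, had 1174 CPM in Veh and 1551 CPM in Doxo, with a UMI in 67.0% and 63.8% of cells. Of their Dcn UMIs, 89.2% in Veh and 90.4% in Doxo lay in 5 cells. Levels of Dcn in CAR-like cells (1852 and 1902 CPM) were also uneven, with 2295 of the 4591 UMIs in Veh and 3050 of the 6192 in Doxo in 5 cells, a median cell at 416 and 278 CPM, and a UMI in 87.1% and 79.5% of cells. Whether free RNA or mixed droplets gave these UMIs was not tested.

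Bgn, the closest relative of Dcn and a protein that binds collagen and BMPs, had the flattest profile of the 10 genes. In Veh it was highest in AE fibroblast-like cells at 2204 CPM (2159 to 2251), followed by CAR-like cells at 1840 CPM (1787 to 1895), and lowest in endothelial-like cells at 399 CPM (354 to 449). In Doxo it was highest in CAR-like cells at 3224 CPM (3163 to 3287), followed by AE fibroblast-like cells at 2019 CPM (1958 to 2082) and osteoblast-like cells at 1986 CPM (1878 to 2099). The latter intervals overlapped. There were 21.3 Dcn UMIs for each Bgn UMI in Veh BC fibroblast-like cells and 17.9 in Doxo, 9.10 and 9.35 in AE fibroblast-like cells, and 1.43 and 1.79 in chondrocyte-like cells. In CAR-like cells the ratio of the summed UMIs was 1.01 (0.97 to 1.05) in Veh and 0.59 (0.57 to 0.61) in Doxo. The Dcn sums rest in large part on 5 cells, with 2295 of 4591 UMIs in Veh. The median CAR-like cell had more Bgn than Dcn in both libraries, at 1580 against 416 CPM in Veh and 2918 against 278 CPM in Doxo. In osteoblast-like cells the ratio was 1.34 (1.23 to 1.47) in Veh and 0.62 (0.57 to 0.68) in Doxo.

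Aspn, a relative of Dcn that binds collagen and TGF-β, had a narrow profile. It reached 1302 CPM (1267 to 1337) in Veh and 1146 CPM (1100 to 1193) in Doxo in AE fibroblast-like cells, of which 81.4% and 83.0% had a UMI of it. BC fibroblast-like cells came next among the 6 classes with 375 CPM (363 to 386) and 190 CPM (181 to 198), with a UMI in 34.1% and 24.6% of cells. The other 4 classes had at most 21.0 CPM in Veh and 11.7 CPM in Doxo.

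Lum, a keratan sulfate carrier that binds collagen fibrils, was also highest in AE fibroblast-like cells, at 3472 CPM (3415 to 3530) in Veh and 2477 CPM (2410 to 2547) in Doxo. Chondrocyte-like cells followed with 674 CPM (651 to 698) and 480 CPM (456 to 506), BC fibroblast-like cells had 473 and 406 CPM, and osteoblast-like cells 343 and 433 CPM. In Doxo the intervals of chondrocyte-like and osteoblast-like cells overlapped, as did those of osteoblast-like and BC fibroblast-like cells. CAR-like cells had 125 CPM (111 to 139) in Veh and 39.0 CPM (32.5 to 46.4) in Doxo.

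Prelp, which binds collagen and heparan sulfate, was highest in BC fibroblast-like cells, at 1646 CPM (1622 to 1670) in Veh and 1265 CPM (1244 to 1287) in Doxo. Chondrocyte-like cells had 818 CPM (793 to 844) and 993 CPM (957 to 1029), AE fibroblast-like cells 715 and 746 CPM, and CAR-like cells 401 CPM (377 to 427) and 642 CPM (615 to 670). These 4 classes kept their order in both libraries, with no overlap between neighbours. In CAR-like cells it was spread over most cells, with a UMI in 74.1% of Veh and 83.1% of Doxo cells.

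Omd, a keratan sulfate carrier first known from bone matrix, was highest in BC fibroblast-like cells, at 644 CPM (629 to 659) in Veh and 518 CPM (504 to 531) in Doxo. It was lower in osteoblast-like cells, at 97.8 CPM (78.0 to 121) and 58.0 CPM (40.9 to 80.0). Its second place passed from AE fibroblast-like cells in Veh (342 CPM, 324 to 360) to chondrocyte-like cells in Doxo (361 CPM, 340 to 383). Most AE fibroblast-like cells lay in finer cluster 4 (described below), which held only 109 Veh and 44 Doxo UMIs of Omd. The whole class held 1385 and 464.

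Kera, best known from the cornea, was the rarest of the 10. It had 500 UMIs in all of Veh and 149 in all of Doxo. BC fibroblast-like cells had 36.6 CPM (33.2 to 40.3) in Veh and 9.87 CPM (8.09 to 11.9) in Doxo, and AE fibroblast-like cells 16.8 CPM (13 to 21.3) and 19.6 CPM (14.0 to 26.7). In BC fibroblast-like cells 5.10% of Veh and 1.99% of Doxo cells had a UMI. None was counted in the 419 Doxo CAR-like cells, which allows a share of cells with a UMI of up to 0.877%.

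Ogn, a small member of the family found in bone and other connective tissue, was found in marrow stroma as well as in both fibroblast-like classes. AE fibroblast-like cells had 757 CPM (731 to 784) in Veh and 644 CPM (609 to 680) in Doxo, CAR-like cells 522 CPM (493 to 551) and 552 CPM (527 to 579), and BC fibroblast-like cells 422 CPM (410 to 434) and 337 CPM (326 to 348). In CAR-like cells 82.6% and 86.4% of cells had a UMI of it, and the 5 richest cells held 7.19% and 5.95% of the UMIs. Its neighbour on the chromosome, Omd, was far rarer there, with 9.65 Ogn UMIs per Omd UMI in Veh and 16.5 in Doxo. In chondrocyte-like cells that ratio was 0.24 in both libraries, and in BC fibroblast-like cells 0.65 in both.

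Epyc, a proteoglycan of growth-plate cartilage, marked chondrocyte-like cells, with 279 CPM (264 to 294) in Veh and 259 CPM (241 to 278) in Doxo. Of these cells, 86.9% and 85.7% had a UMI, or 39.7% and 39.9% after every cell was thinned to 2000 UMIs. The next class, BC fibroblast-like cells in Veh, had 28.1 CPM, and 62.4% of those UMIs lay in 5 of the 1117 cells.

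Chad, a cartilage protein that binds integrins and collagen, was highest in chondrocyte-like cells, at 9564 CPM (9477 to 9652) in Veh and 12707 CPM (12580 to 12834) in Doxo. BC fibroblast-like cells followed with 6569 CPM (6522 to 6616) and 7244 CPM (7193 to 7295), with a UMI in 87.6% and 90.0% of cells. The other classes were much lower. After thinning to 2000 UMIs, 13% of Veh and 15.7% of Doxo CAR-like cells had a UMI of Chad, against 12.5% and 13.1% of endothelial-like cells, which should lack it. No expression of Chad in CAR-like cells is read from these shares. The shares were 18.1% and 22.7% in osteoblast-like and 21.7% and 20.2% in AE fibroblast-like cells.

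Of the 10 genes, 7 lie in 2 runs. On GRCm38, Dcn (chr10:97479609-97518143), Lum (chr10:97565128-97572703), Kera (chr10:97606879-97613692) and Epyc (chr10:97644068-97682454) lie on the plus strand within 202.846 kb, with no other protein-coding gene between them. Aspn (chr13:49544443-49567565), Omd (chr13:49582462-49592822) and Ogn (chr13:49608046-49624501) lie on the plus strand within 80.059 kb, inside a stretch that the gene Cenpp also spans. The class of highest level differed within each run. On chromosome 10 the class of highest level was BC fibroblast-like for Dcn, AE fibroblast-like for Lum and chondrocyte-like for Epyc in both libraries, while Kera was highest in the class of Dcn in Veh and in that of Lum in Doxo. The Doxo level of Kera in AE fibroblast-like cells rests on 40 UMIs, 29 of them in 5 cells. On chromosome 13 it was AE fibroblast-like for Aspn and Ogn and BC fibroblast-like for Omd in both libraries. In CAR-like cells there were 24.9 Ogn UMIs for each Aspn UMI in Veh and 47.3 in Doxo, whereas in AE fibroblast-like cells there were 0.58 and 0.56. The other 3 genes stand apart, with Prelp on the minus strand at chr1:133910304-133921414, Chad at chr11:94565047-94569127 and Bgn at chrX:73483602-73495933.

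**Figure D3:**
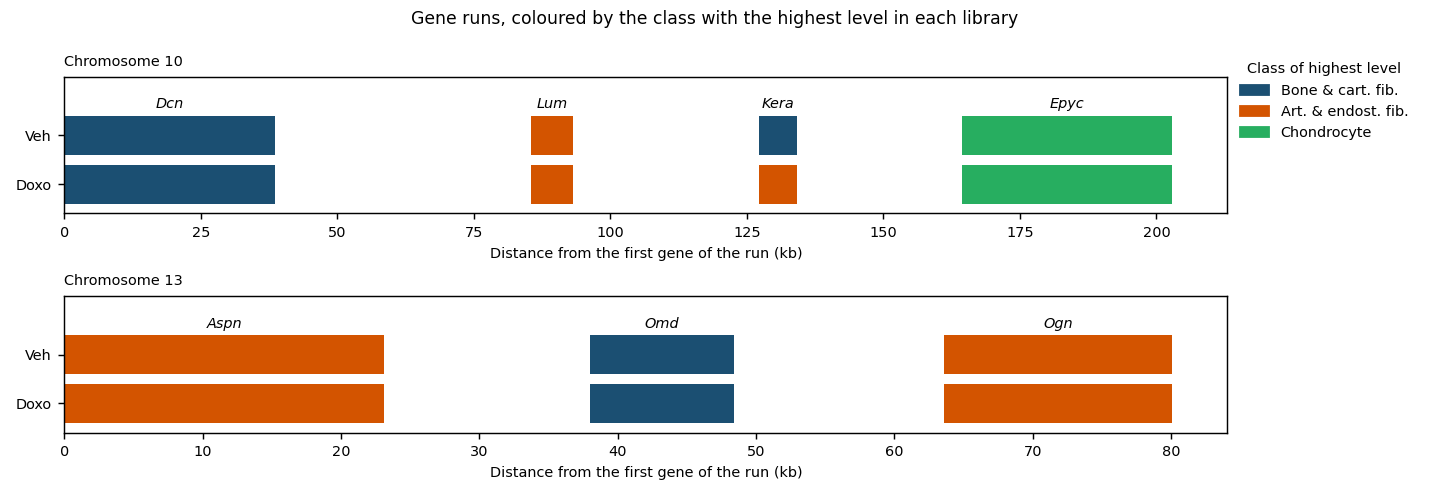
Maps of the gene runs on chromosomes 10 and 13, drawn to scale as distance in kb from the start of the first gene, with each gene coloured by the class in which it was highest in Veh (upper row) and Doxo (lower row). Neighbours in a run were highest in different classes in Veh, and Kera changed from BC fibroblast-like (36.6 CPM) in Veh to AE fibroblast-like (19.6 CPM) in Doxo, the class of its neighbour Lum. That Doxo level rests on 40 UMIs, 29 of them in 5 cells.

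Promoters are shown for Chad, the most abundant member in chondrocyte-like cells, and for Bgn, the member with the flattest profile. They are the 60 bases before the start in the RefSeq table on GRCm38.p6, where 8 of the 10 genes had an entry and Dcn and Lum had none. Capitals mark the motif TATAAA in Chad and the GC box, GGGCGG read on the other strand, in Bgn.
Chad, chr11:94564987-94565046, plus strand: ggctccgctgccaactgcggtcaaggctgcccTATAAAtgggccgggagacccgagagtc
Bgn, chrX:73483541-73483600, plus strand: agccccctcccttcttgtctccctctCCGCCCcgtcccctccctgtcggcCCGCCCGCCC
The TATAAA of Chad begins 28 bases before the start. On either strand TATAAA is found in 13.6% of 32851 promoter windows and the GC box in 35.7%, so both are common, and the last 2 GC box matches of Bgn overlap. A match describes the letters only.

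Splitting the cells more finely, again without the 10 genes, gave 11 clusters, in which the family varied within the classes. Dcn ranged from 11835 CPM in Veh and 10866 CPM in Doxo in an unnamed cluster led by Msmp, Rbp4 and Adgrg6 (cluster 2) to 38565 and 30445 CPM in the main BC fibroblast-like cluster (cluster 1), and reached 37520 and 32657 CPM in an unnamed cluster led by Serpina1e, Tesc and Cd14, with Col10a1 among its 10 leading genes (cluster 8). But for 1 Doxo cell, all 3 clusters lie within the BC fibroblast-like class. Cluster 8 passed 2 chondrocyte markers, Sox9 and Acan, and 2 synovial markers, under the 3 needed for a name. Cluster 8 had as much Chad as the chondrocyte-like cluster 5, with 10659 and 11523 CPM against 9718 and 12747 CPM, but almost no Epyc, with 0.669 and 0 CPM against 284 and 260 CPM.

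The tendon-like cluster (cluster 10, with 57 Veh and 41 Doxo cells and the markers Tnmd, Scx, Mkx and Thbs4) held the highest levels of Kera, at 404 CPM in Veh and 123 CPM in Doxo. It was also highest for Aspn, at 2391 and 1973 CPM, and for Ogn, at 2214 and 2623 CPM. Fmod (fibromodulin), a tendon-rich SLRP that was not among the 10, was highest there too, at 7102 and 4948 CPM.

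Lum was highest in cluster 6, an osteoblast-like cluster with Tnn, Mmp13, Alpl and Lum itself among its 10 leading genes, at 4579 CPM in Veh and 3108 CPM in Doxo, with Omd at 1260 and 1163 CPM. The other osteoblast-like cluster, 7, with Bglap genes of mature osteoblasts among its leading genes, had 358 and 520 CPM of Lum and 103 and 82.0 CPM of Omd. Cluster 6 drew 112 Veh and 57 Doxo cells from the AE fibroblast-like class, 85 and 67 from the BC fibroblast-like class and 26 and 26 from the osteoblast-like class. Cluster 4, which held most of the other AE fibroblast-like cells and 20 Veh and 6 Doxo cells of the BC fibroblast-like class, had 1914 and 1457 CPM of Lum.

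CAR-like cells fell into cluster 3, with 287 Veh and 418 Doxo cells of the class, and cluster 11, with Ccl2, Ccl7 and Cxcl10 among its leading genes, with 76 Veh and 1 Doxo cell. In Veh, Bgn was at 1889 CPM in cluster 3 and 1732 CPM in cluster 11, and Ogn at 559 and 476 CPM.

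**Figure D4:**
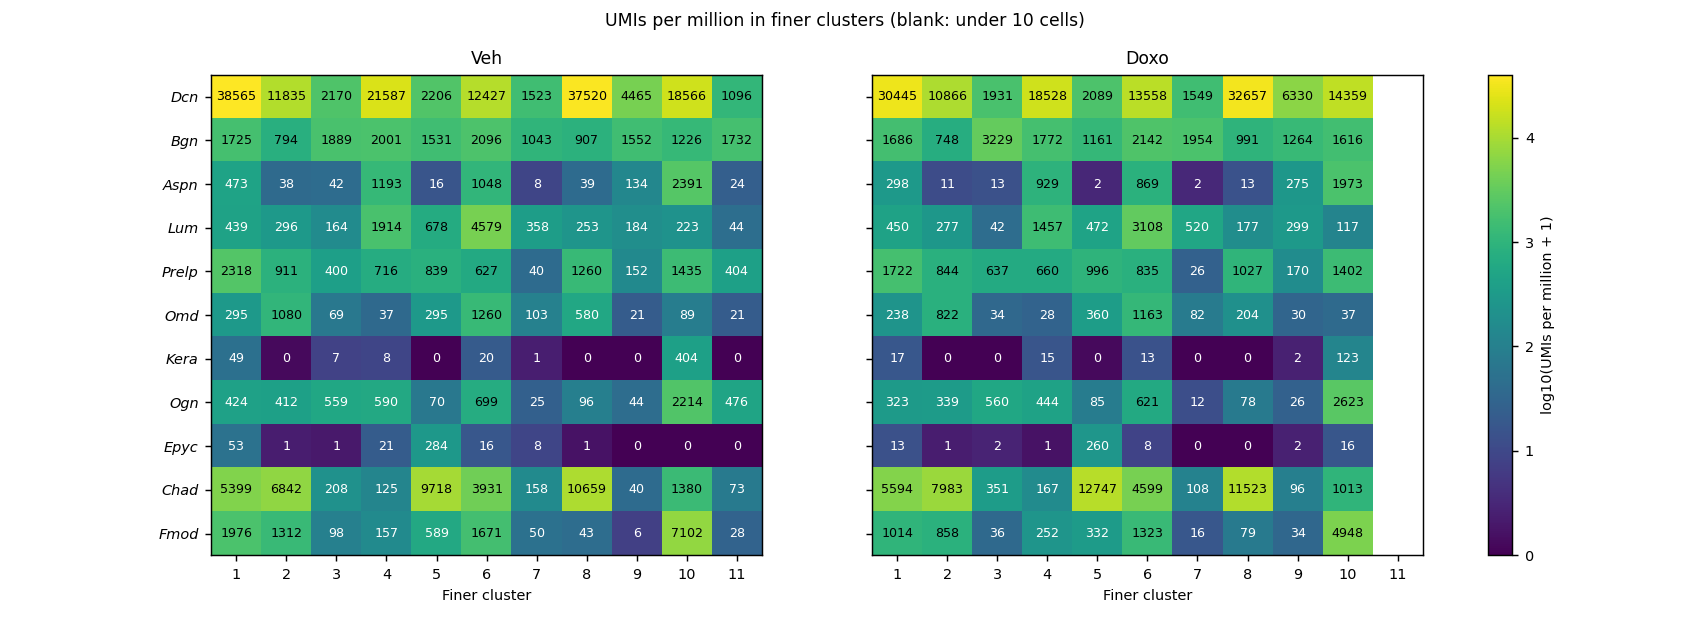
Heat map of the 10 genes and Fmod in the 11 finer clusters, with the CPM written in each square and coloured on a log10 scale, Veh on the left and Doxo on the right. Kera, Aspn and Ogn peak in cluster 10, Lum in cluster 6, Epyc in cluster 5, and Chad in clusters 5 and 8.

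The Veh and Doxo libraries were compared within each class. A gene was counted as lower or higher in Doxo when its CPM differed by at least 1.5-fold and the class held at least 50 UMIs of it over both libraries. Of 60 pairs of gene and class, 47 had enough UMIs, of which 11 were lower in Doxo, 6 were higher and 30 lay within the fold. Of all genes with enough UMIs, 6.21% to 10.9% were lower and 2.7% to 17.9% higher, depending on the class. The class with the highest level was the same in Veh and Doxo for 8 of the 10 genes, the exceptions being Bgn and Kera.

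In BC fibroblast-like cells 3 of 10 genes were lower in Doxo, against 6.21% of all 11348 genes with enough UMIs, and 0 were higher, against 2.7%. The 3 genes were Aspn, Kera and Epyc. The summed AE fibroblast markers of these cells were 3524 CPM in Veh and 2262 CPM in Doxo, and their part in the lower Aspn was not tested. Aspn counted 4245 UMIs in Veh against 2054 in Doxo, and its log2 ratio of Doxo to Veh was -0.98 (-1.06 to -0.91). Kera had 415 and 107 UMIs and a ratio of -1.89 (-2.21 to -1.58), and Epyc 319 and 71 UMIs and a ratio of -2.10 (-2.50 to -1.73). These 3 were among the rarer members in this class, and Kera and Epyc lay in few cells, with 42.4% of Kera UMIs and 62.4% of Epyc UMIs of Veh in 5 cells. Of the abundant members, Dcn had a ratio of -0.34 (-0.34 to -0.33), Prelp -0.38 (-0.41 to -0.35), Bgn -0.09 (-0.12 to -0.06) and Chad 0.14 (0.13 to 0.16). The ratio lay below 0 for 9 of the 10, with a median of -0.33. Over all genes with enough UMIs the median was -0.09, with quartiles at -0.27 and 0.10, so most genes of the class also lay below 0. Median depth per cell was also lower in Doxo, at 7286 against 9602 UMIs. All 10 ratios kept their sign with every cell thinned to 2000 UMIs and under the other alternatives of processing. The part of depth in their size was not tested.

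Within the finer clusters of this class the ratios of Aspn and Kera had the same sign. The ratio of Aspn was -0.67 in cluster 1, -1.80 in cluster 2, -1.54 in cluster 8 and -0.28 in the tendon-like cluster 10. For Kera it was -1.54 in cluster 1 and -1.69 (-2.42 to -1.08) in cluster 10. The tendon-like cluster made up 57 of 1117 Veh and 41 of 1359 Doxo cells of the class.

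In AE fibroblast-like cells 2 of 10 genes were lower in Doxo, against 7.01% of all genes, and 0 were higher, against 4.91%. Omd counted 1385 UMIs in Veh against 464 in Doxo, and its log2 ratio of -0.59 (-0.74 to -0.44) lay close to the fold used. Epyc had 71 and 1 UMIs and a ratio of -4.59 (-10.49 to -2.64), and 76.1% of the Veh UMIs lay in 5 cells. Lum, whose level was highest in this class, had a ratio of -0.49 (-0.53 to -0.44), Aspn -0.18 (-0.26 to -0.11) and Dcn -0.09 (-0.11 to -0.07). The summed osteoblast markers of the class were 9125 CPM in Veh and 5251 CPM in Doxo, and its cells of cluster 6, which is rich in Lum and Omd, numbered 112 of 403 in Veh and 57 of 247 in Doxo. In the AE fibroblast-like cells of cluster 4 alone the ratio of Omd was -0.42 and that of Lum -0.41, and with classes set by marker levels that of Omd was -1.75.

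In CAR-like cells 3 of the 8 genes with enough UMIs were lower in Doxo, against 7.99% of all genes, and 3 were higher, against 10.1%. The higher ones were Bgn, Prelp and Chad. Bgn counted 4563 UMIs in Veh against 10495 in Doxo, and its ratio was 0.81 (0.76 to 0.86), or 1.75-fold. This was a shift of most cells, with the median cell at 1580 CPM in Veh and 2918 CPM in Doxo, and the 5 richest cells holding 5.59% and 4.6% of the UMIs. After thinning to 2000 UMIs, 92.8% of Veh and 97.8% of Doxo cells had a UMI of Bgn. Without the cells of cluster 11 the ratio was 0.78.

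Prelp counted 995 UMIs in CAR-like cells of Veh against 2089 of Doxo (ratio 0.68, 0.57 to 0.79), with the median cell at 290 and 438 CPM. Without the 5% of cells of each library with most UMIs the ratio was 0.56, just under the fold. Chad had 427 and 1142 UMIs and a ratio of 1.03 (0.86 to 1.19), but the median cell held none in either library and 60.4% and 55.5% of the UMIs lay in 5 cells. Without the 5% of cells of each library with most UMIs its ratio was -0.23, and the summed chondrocyte markers were level, at 425 and 424 CPM.

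The lower genes in CAR-like cells were Lum, Omd and Aspn, all at low levels there. Lum had 309 and 127 UMIs and a ratio of -1.67 (-1.99 to -1.37), with 114 of the Veh UMIs in 1 cell and 167 in 5 cells. Omd had 134 and 109 UMIs and a ratio of -0.69 (-1.07 to -0.31), which was -0.11 with classes set by marker levels and -0.51 with a stricter cell filter. Aspn had 52 and 38 UMIs and a ratio of -0.84 (-1.49 to -0.21), with 36 of the Veh and 34 of the Doxo UMIs in 5 cells. The summed osteoblast markers of CAR-like cells were 8012 CPM in Veh and 3146 CPM in Doxo and the synovial markers 1654 and 773 CPM, and their part in the lower Lum, Omd and Aspn was not tested. Dcn, with a ratio of 0.04 (-0.02 to 0.09), and Ogn, with 0.08 (-0.02 to 0.19), were level between the libraries within counting error. Without the 5% of cells of each library with most UMIs, however, the ratio of Dcn was -0.87 and that of Lum -0.93. The median ratio of the 8 genes was 0.06 against 0.05 over all genes, with members on both sides of it.

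**Figure D5:**
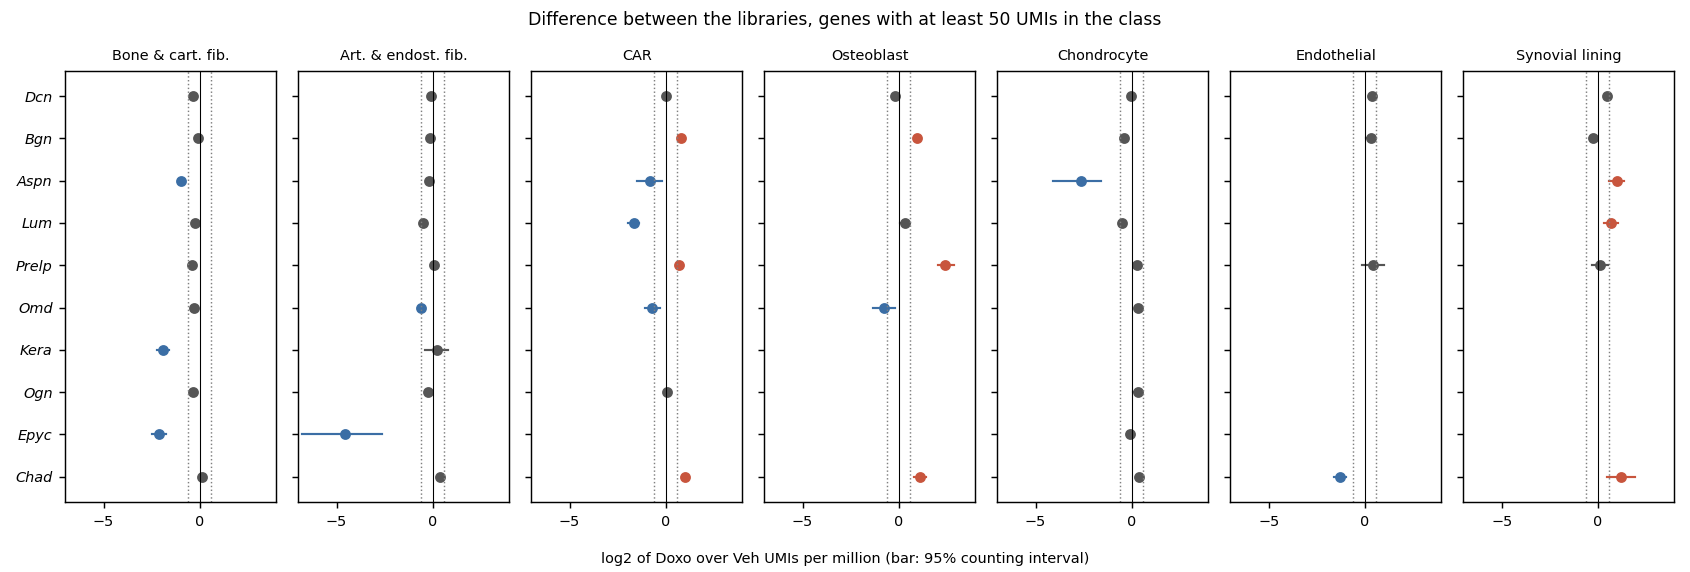
Log2 ratio of Doxo to Veh for each gene with at least 50 UMIs in a class, with 95% counting intervals, dotted lines at a 1.5-fold difference, and points past it in blue (lower in Doxo) or red (higher in Doxo). Bgn lies right of the lines in osteoblast-like (0.94) and CAR-like cells (0.81) only, and Aspn left of them in BC fibroblast-like (-0.98), CAR-like (-0.84) and chondrocyte-like cells (-2.65).

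In osteoblast-like cells 1 of 6 genes was lower in Doxo, against 10.9% of all genes, and 3 were higher, against 17.9%. Bgn counted 889 UMIs in Veh against 1266 in Doxo, and its ratio was 0.94 (0.82 to 1.07), or 1.92-fold. The median cell had 762 CPM in Veh and 1592 CPM in Doxo, and after thinning 80.7% and 90.9% of cells had a UMI. In the Bglap-rich cluster 7 alone the ratio was 0.91. With classes set by marker levels in place of clusters it was 0.34, below the fold.

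Prelp had 63 and 254 UMIs in osteoblast-like cells, a ratio of 2.43 (2.04 to 2.86), but 241 of the 254 Doxo UMIs lay in 5 cells and 132 in 1 cell. Chad had 156 and 249 UMIs and a ratio of 1.10 (0.81 to 1.40), with 75.9% of the Doxo UMIs in 5 cells. In cluster 7 alone the ratio of Prelp was -0.60 (-1.79 to 0.40), on 29 and 11 UMIs, and that of Chad -0.55, which lies within the fold. Without the 5% of cells of each library with most UMIs the ratio of Prelp was 0.06. Omd had 84 and 37 UMIs and a ratio of -0.74 (-1.35 to -0.18), which was 0.048 with classes set by marker levels. In these cells summed pericyte markers were 21.0 CPM in Veh and 546 CPM in Doxo (7 of 8 markers with a UMI in each), CAR markers 1228 and 2416 CPM and synovial markers 312 and 858 CPM, and their part in the higher Prelp, Chad and Bgn was not tested.

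In chondrocyte-like cells 1 of 9 genes was lower in Doxo, against 10.1% of all genes, and 0 were higher, against 10.6%. The lower gene was Aspn, with 74 UMIs in Veh against 7 in Doxo and a ratio of -2.65 (-4.10 to -1.62), and 64 of the 74 lay in 5 cells. Chad had 46215 and 38690 UMIs and a ratio of 0.41 (0.39 to 0.43), with the median cell at 9026 and 11431 CPM, and Epyc a ratio of -0.10 (-0.23 to 0.02). There were 34.3 Chad UMIs for each Epyc UMI in Veh and 49.0 in Doxo. Bgn had a ratio of -0.39 (-0.45 to -0.33) and Lum -0.49 (-0.58 to -0.40), while Prelp had 0.28 (0.21 to 0.35) and Omd 0.32 (0.21 to 0.44). The summed osteoblast markers in these cells were 13043 CPM in Veh and 4703 CPM in Doxo, and their part in the ratios of Aspn, Lum and Bgn was not tested.

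In endothelial-like cells 1 of 4 genes was lower in Doxo, against 7.69% of all genes, and 0 were higher, against 9.16%. The gene was Chad, at 695 CPM (634 to 759) in Veh and 289 CPM (235 to 351) in Doxo, a ratio of -1.26 (-1.59 to -0.96), and 444 of the 487 Veh UMIs lay in 1 cell. Without the 5 richest cells of each library the ratio was 0.58.

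The 7 other SLRPs measured beside the 10 were Fmod, Optc, Nyx, Podn, Podnl1, Tsku and Ecm2. Fmod, the closest relative of Lum, lies next to Prelp, at chr1:134037254-134048277 on the plus strand. It was lower in Doxo in BC fibroblast-like cells (1610 and 898 CPM, ratio -0.84), CAR-like cells (79.5 and 35.6 CPM, ratio -1.15) and chondrocyte-like cells (578 and 332 CPM, ratio -0.80), within the fold in AE fibroblast-like cells (ratio -0.06, -0.15 to 0.03), and higher in endothelial-like cells on 24 and 26 UMIs (ratio 1.12, 0.26 to 1.98). Podn (podocan) counted 93 UMIs in CAR-like cells of Veh against 484 of Doxo, or 37.5 against 149 CPM, with a ratio of 1.98. Ecm2, which lies next to Aspn, had 539 and 404 CPM in BC fibroblast-like cells. Tsku had a ratio of 1.09 in AE fibroblast-like cells, on 27 and 29 UMIs, and Podnl1 -0.69 in chondrocyte-like cells, on 65 and 25 UMIs. Optc and Nyx were near the limit of detection, with 76 and 15 UMIs in all of Veh.

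Genes that build the sugar chains mostly lay within the fold. Of 22 genes for chondroitin and dermatan sulfate synthesis, 18 had enough UMIs in CAR-like cells, where 0 were lower and 2 higher (against 7.99% and 10.1% of all genes), Xylt2 (ratio 0.87), which starts the chain, and Chpf (0.77), which extends it. In BC fibroblast-like cells 1 of 21 was lower and 1 higher (against 6.21% and 2.7%), the latter Chst11 (0.71), a sulfotransferase. Of 11 genes for keratan sulfate synthesis, 1 of 8 was lower in CAR-like cells (against 7.99%), B3gnt2 (-0.64), and 2 of 9 in chondrocyte-like cells (against 10.1%), Chst1 (-1.24) and B3gnt2 (-0.70).

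Among 13 fibrillar and associated collagens, the partners of SLRPs in fibrils, 4 of 13 were lower in BC fibroblast-like cells (against 6.21% of all genes), 5 of 13 in AE fibroblast-like cells (7.01%), 3 of 13 in CAR-like cells (7.99%) and 7 of 12 in chondrocyte-like cells (10.1%), and 0 were higher in these 4 classes. Summed osteoblast markers, which include Col1a1, were also lower in Doxo in AE fibroblast-like, CAR-like and chondrocyte-like cells (values above), and their part was not tested. Col3a1 had a ratio of -1.34 in BC fibroblast-like cells, and Col1a1 of -0.83, -0.92 and -0.96 in BC fibroblast-like, AE fibroblast-like and CAR-like cells. In chondrocyte-like cells the ratio was -0.70 for Col2a1, the main cartilage collagen, and -3.44 for Col3a1. In osteoblast-like cells 0 of 12 were lower and 1 was higher (against 10.9% and 17.9%). In endothelial-like cells 0 of 8 were lower and 7 were higher (against 7.69% and 9.16%), beside summed CAR markers of 826 CPM in Veh and 2577 CPM in Doxo.

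Of 10 proteases known to cut SLRPs, 6 of 7 were lower in chondrocyte-like cells (against 10.1% of all genes), with ratios of -2.78 for Mmp3 and -1.30 for Adamts5. The summed osteoblast markers of these cells were 13043 CPM in Veh and 4703 CPM in Doxo, and their part was not tested. In BC fibroblast-like cells 3 of 9 were lower and 1 higher (against 6.21% and 2.7%), and in CAR-like cells 2 of 7 were lower and 0 higher (against 7.99% and 10.1%). Of 18 ligands and receptors, of which 17 were found, 4 of 15 were lower in CAR-like cells (against 7.99%) and 4 of 12 in chondrocyte-like cells (against 10.1%), and 0 were higher in either. Bmp2 had ratios of -1.22 and -1.07 in these classes, and Tgfb2 had -0.89 in CAR-like cells.

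Of 12 large and other matrix proteoglycans, 4 of 8 were higher in CAR-like cells (against 10.1% of all genes), Acan (aggrecan, 1.83), Vcan (versican, 1.08), Hspg2 (perlecan, 1.02) and Agrn (agrin, 0.79), and 1 was lower, Prg4 (lubricin, -1.17). In osteoblast-like cells 4 of 5 were higher (against 17.9%), with ratios of 1.80 for Prg4 and 1.74 for Acan. Prg4 is itself a synovial marker, and the summed synovial markers were 1654 and 773 CPM in Veh and Doxo CAR-like cells and 312 and 858 CPM in osteoblast-like cells. Acan is itself a chondrocyte marker. The summed chondrocyte markers were 425 and 424 CPM in Veh and Doxo CAR-like cells and 7014 and 6545 CPM in osteoblast-like cells. Whether the Acan UMIs lay in a few cells was not tested. In BC fibroblast-like cells 0 of 10 passed the fold in either direction.

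The genes whose levels followed each member most closely were found from the Pearson correlation of log2(CPM + 10) over the 14 sums of 7 classes and 2 libraries, among 8057 genes. The sums of 1 library share its depth, and the correlations are descriptions only. Dcn was followed most closely by Nrn1 (r = 0.97), Aspn by Fez1 (0.97), Omd by Itih2 (0.97), Epyc by Slc16a4 (0.97), Chad by Scube1 (0.96), Bgn by Tmem258 (0.94), Kera by Tnmd, the tendon gene tenomodulin (0.94), Ogn by Cobl (0.93), Prelp by Upp2 (0.92) and Lum by Lsp1 (0.90). Fmod was among the 3 genes closest to Omd (0.96). Between members the closest were Aspn and Dcn (0.92), Dcn and Kera (0.83) and Omd and Prelp (0.80), whereas Bgn and Chad were at -0.08.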

How the data were processed

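Single-cell 3′ libraries of 1 Veh and 1 Doxo sample were used. Per the labels the authors used Cell Ranger, Partek and GRCm38 (versions not given in the sources used here), and the methods state filters in Seurat. The deposited values are log2 values that the authors had scaled per cell to 1e+06 in 2 rounds, as read from the values. Both rounds were inverted in each cell, which gave whole UMIs (within 0.1) for 99.9669% of nonzero Veh and 99.9642% of Doxo values up to 50 UMIs.

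Cells were clustered without the 10 genes in Seurat 5.3.0 (R 4.3.3, 2000 variable genes, 35 principal components, resolution 0.1, or 0.4 for finer clusters), in a second round without endothelial-like cells. A cluster was named from 3 or more markers present in 10% or more of its cells and 1 log2 unit above the others. Doublets were kept.

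UMIs were summed per class. CPM has exact Poisson, cell shares exact binomial and ratios exact conditional binomial intervals, with 0.5 UMI added for the ratio. Calculations were tested on simulated data. All members were named; of other lists, the largest and the furthest past 1.5-fold; and the 3 genes most like each member. The members, lists and markers were chosen with earlier results of these data known, and the synovial list holds genes taken from known clusters. Classes, filters, cell weights, depth, scaling and thresholds were varied. Python 3.11.15, numpy 2.4.6, scipy 1.17.1, pandas 2.3.3 and matplotlib 3.10.9 were used.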

Additional observations from a re-analysis of the deposited data

Results flagged for a closer look

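For 3 genes the log2 ratio of Doxo to Veh passed 1.5-fold in opposite directions in different classes. The difference between classes was not tested, since each class has 1 library per condition. Aspn was lower in Doxo in BC fibroblast-like cells (-0.98), CAR-like cells (-0.84) and chondrocyte-like cells (-2.65), and higher in synovial lining-like cells (0.99), where 86.7% of its Veh and 92.4% of its Doxo UMIs lay in 5 cells. Lum was lower in CAR-like cells (-1.67) and higher in synovial lining-like cells (0.69), where 85.6% and 80.7% of its UMIs lay in 5 cells. Chad was lower in endothelial-like cells (-1.26), where 444 of 487 Veh UMIs lay in 1 cell, and higher in CAR-like (1.03), osteoblast-like (1.10) and synovial lining-like cells (1.19), the last on 25 and 60 UMIs. Of these 60 Doxo UMIs, 50 lay in 5 cells and 43 in 1 cell.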

How the results depend on the processing

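The comparisons were run under 16 alternatives, of which 12 were planned and 4 were chosen after seeing the data (the member's 5 richest cells left out, or a class cut to its main finer cluster). No paired analysis was possible because each condition has 1 library, and none could be left out. Of the 17 pairs past the fold, 8 stayed past 1.5-fold wherever they could be computed: Aspn, Kera and Epyc in BC fibroblast-like cells, Epyc in AE fibroblast-like cells, Bgn, Lum and Aspn in CAR-like cells, and Aspn in chondrocyte-like cells. Without the 5 richest cells, under 50 UMIs remained for Epyc in AE fibroblast-like cells and for Aspn in CAR-like and chondrocyte-like cells. That alternative could therefore not be computed for these pairs. Others were missing too, as the 3 pairs were computed in 10 of 13, 11 of 13 and 9 of 12 alternatives that gave a ratio for their class. With cells thinned to 2000 UMIs 5 pairs were lower, but thinning also left fewer pairs with the 50 UMIs needed. With a fold of 2, 6 were lower and 3 higher. Under the other alternatives 8 to 12 were lower, 4 to 9 were higher, and 7 to 9 genes were highest in the same class in both libraries. The share of all genes past the fold was not computed for the alternatives.

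Of the 17 pairs, 4 changed sign under an alternative, and some pairs within the fold, such as Dcn in CAR-like cells, did so too. Chad in osteoblast-like cells had -0.10 with 20 principal components, -1.90 with the stricter cell filter, -1.41 without the 5% of cells with most UMIs and -0.55 in cluster 7 alone. Chad in endothelial-like cells had 2.18 with classes from marker levels, 2.31 with the stricter filter, 1.60 without the 5% of cells with most UMIs and 0.58 without its 5 richest cells. Chad in CAR-like cells had -0.23 without the 5% of cells with most UMIs, and Omd in osteoblast-like cells 0.048 with classes from marker levels. The cause was not tested. Depth limits the rarer genes: Kera and Epyc rest on under 100 UMIs in most classes.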

Other observations

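The synovial lining-like cells, defined by Prg4 and Clic5 among other markers, were rich in Dcn and Bgn among the family. The 10 genes gave 0.659% of their UMIs in Veh and 0.849% in Doxo. Dcn was at 4500 CPM (4332 to 4673) in Veh and 6330 CPM (6134 to 6530) in Doxo, a log2 ratio of 0.49 (0.42 to 0.56), with 60.2% and 53.1% of its UMIs in 5 cells. Bgn was at 1498 CPM (1402 to 1599) and 1264 CPM (1178 to 1356) and was found in 97.7% and 96.4% of cells. Dcn had 2706 UMIs against 901 of Bgn in Veh, and 3955 against 790 in Doxo. Ogn, Omd and Chad were low, at 44.9, 21.6 and 41.6 CPM in Veh, and Kera and Epyc had no UMI in the 43 Veh cells, which allows a share of cells with a UMI of up to 8.22%.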
